A study of Mus musculus with 12 samples.

Results

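The genes examined here encode the parts of the proteasome, the barrel-shaped protease that degrades ubiquitin-tagged proteins. They were chosen by symbol, as every gene named Psma, Psmb, Psmc, Psmd, Psme, Psmf or Psmg with a number and at least 1 assembled transcript matching or overlapping the RefSeq gene in sense. This gave 48 of the 24516 genes that carry a symbol in the transcript table, with 95 of its 71967 transcripts. The RNA was total RNA, depleted of ribosomal RNA, from whole testes of C57BL/6 mice that were 3 months (3M), 6 months (6M), 12 months (12M) or 18 months (18M) old, with 3 mice and 1 library per mouse at each age. No group carried a treatment or an engineered allele, and the sources used here do not say whether mice of an age were litter mates. Whole testis mixes germ cells at every stage with Sertoli, Leydig, immune, endothelial and peritubular cells, so fewer cells of a type and less RNA per cell cannot be told apart.

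The core particle of the proteasome is a stack of 4 rings, with an outer ring of alpha subunits at each end and beta subunits, which hold the catalytic sites, in the inner rings. A regulatory cap of ATPases and non-ATPase subunits binds ubiquitin chains, unfolds the substrate and feeds it in. In germ cells from meiosis onward, Psma8 takes the place of Psma7 in the alpha ring, and Psme4, also called PA200, serves as an alternative cap of this testis proteasome. In immune cells and after interferon signalling, Psmb8, Psmb9 and Psmb10 replace the catalytic subunits Psmb5, Psmb6 and Psmb7.

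Each library held between 50924104 and 71803379 estimated reads, with a median of 56236682. The 48 genes took 0.451% to 0.488% of these reads, with means of 0.478% for 3M, 0.476% for 6M, 0.466% for 12M and 0.478% for 18M libraries. Levels between genes are given in FPKM, read fragments scaled to transcript length and library size, summed over the kept transcripts of a gene, and the tests of age used reads, which are shown as CPM, counts scaled to library size alone. The tissue label was checked against marker genes, and the 6 spermatogonial markers summed to 21.1 to 24.6 FPKM, the 7 spermatocyte markers to 397 to 435 FPKM and the 8 spermatid markers to 21917 to 32621 FPKM in the libraries. The library of the third 6M mouse stood apart in several marker sums. Leydig markers summed to 1654 FPKM over 6 genes, against 681 to 1118 in the other libraries. Most of this sum was Insl3 alone, at 1516 FPKM. Sertoli markers were at 559 FPKM over 7 genes against 412 to 435, and most of this was Clu, at 485 FPKM. Macrophage and lymphocyte markers were at 26.1 FPKM over 8 genes against 13.0 to 22.6. Results that rest on the library of the third 6M mouse are given with and without it. The third 12M mouse had the highest spermatid sum, at 32621 FPKM against 21917 to 28772 in the other libraries. It also had the lowest share of reads in the 48 genes, at 0.451%. Its library was left out only where each library was left out in turn.

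Levels differed widely between parts that stand together in 1 particle. Of the 48 genes, 6 had a mean over the 12 libraries of 100 FPKM or more, 38 had 10 FPKM or more, 7 lay between 1 and 10 FPKM and 3 were under 1 FPKM. The median over the 22685 genes of the table with a value above 0 was 2.13 FPKM. When the 48 genes were ordered by mean level, 38 of the 47 neighbouring pairs overlapped between libraries, and 9 pairs did not. The pairs without overlap lay at the top, down to Psmb7 and Psmc5, and at the bottom, from Psmd9 and Psmd10, and none lay between.

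**Figure D1:**
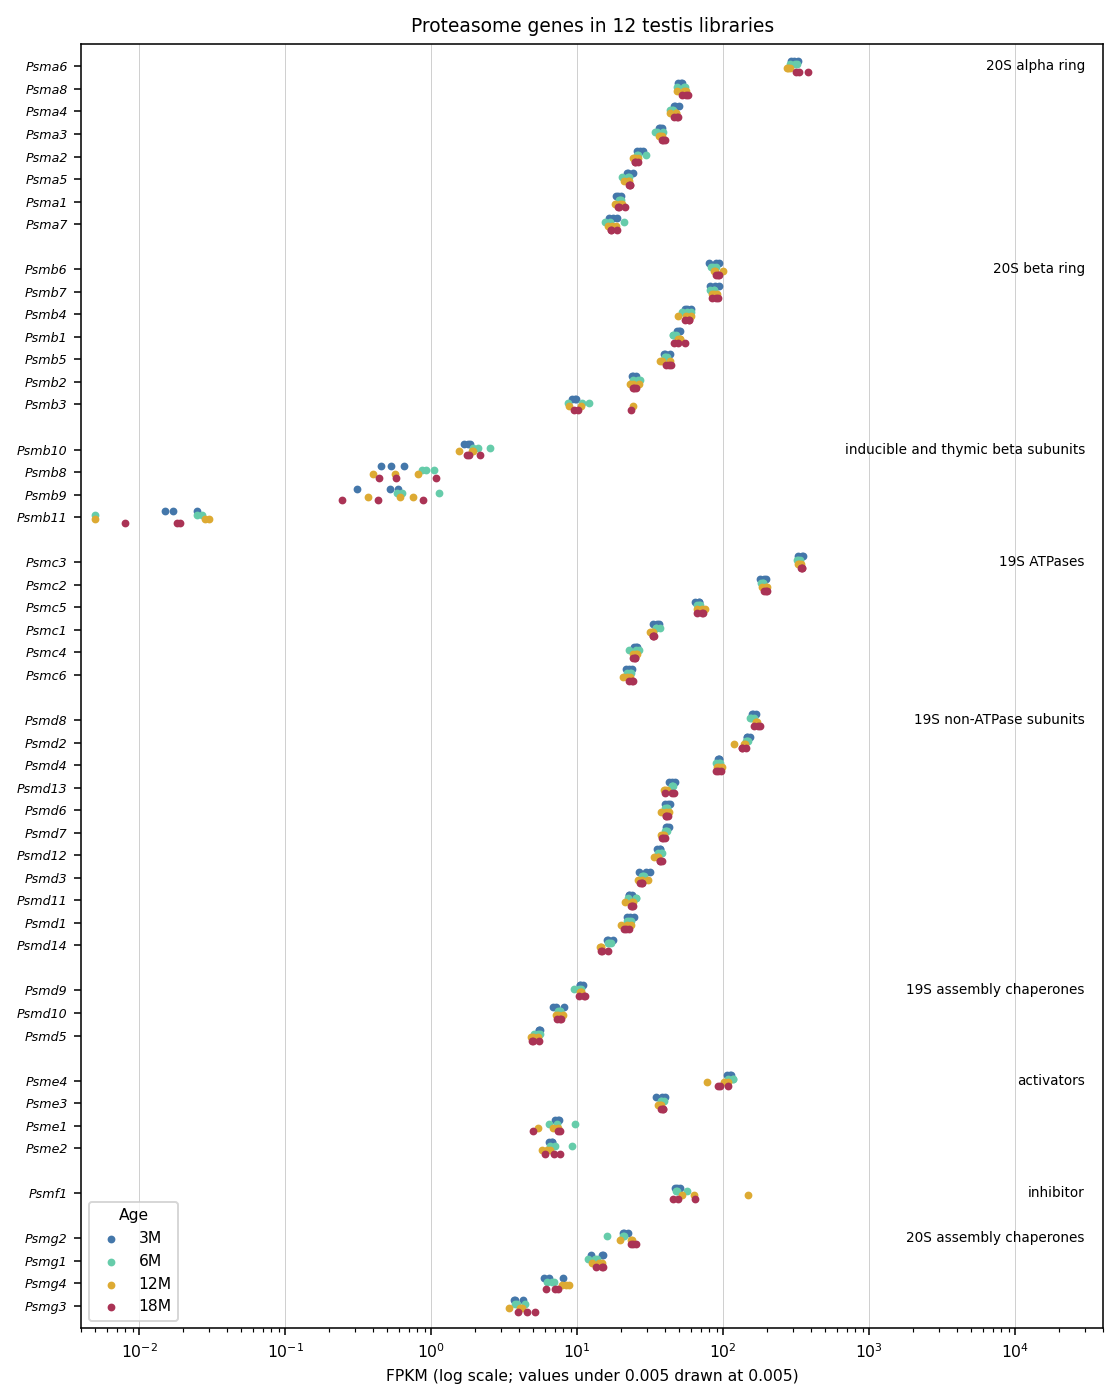
FPKM of each of the 48 proteasome genes (horizontal axis, log scale, values under 0.005 drawn at 0.005) in the 12 testis libraries, with 1 point per mouse coloured by age and genes grouped by role and ordered by mean. Psma6 and Psmc3 lie at the right near 308 and 336 FPKM, the inducible subunits lie at the left under 3 FPKM, and the points of the 4 ages lie on top of each other for most genes, except 1 library of Psmf1 and 2 of Psmb3.

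The alpha ring, in which 7 different subunits each occur once, had 8 genes here, since Psma8 can take the place of Psma7. Their mean levels ran from 17.5 FPKM for Psma7 to 308 FPKM for Psma6. Between these lay Psma1 at 19.5, Psma5 at 22.3, Psma2 at 26.0, Psma3 at 37.2, Psma4 at 46.4 and Psma8 at 52.6 FPKM. Psma6 did not overlap Psma8, the next gene, in any library, and Psma1 and Psma7, the lowest neighbours, overlapped.

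Psma8, the testis alpha subunit, lies on chromosome 18 and was represented by 1 RefSeq transcript, NM_001163609, with 7 exons and 1693 nucleotides. Its level was 52.3, 51.1 and 48.8 FPKM in the 3M mice, 54.6, 48.4 and 53.8 in the 6M mice, 55.5, 48.3 and 53.6 in the 12M mice, and 52.4, 55.1 and 57.6 in the 18M mice. All 12 values lay between 48.3 and 57.6 FPKM, and the 3 of 18M lay just above the 3 of 3M, while all other pairs of ages overlapped. In CPM the mice of 3M and 18M overlapped too. The coverage of its least covered exon was 0.527 ± 0.047 (SD, n = 12) of that of its most covered exon.

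Psma7, the alpha subunit of other tissues, lies on chromosome 2 and had 2 RefSeq transcripts that together gave 18.8, 16.4 and 17.7 FPKM in the 3M mice, 16.6, 15.5 and 20.9 in the 6M mice, 16.4, 17.3 and 18.4 in the 12M mice, and 18.7, 16.9 and 17.0 in the 18M mice. The highest value was that of the third 6M mouse, and the other 11 lay between 15.5 and 18.8 FPKM. No library of Psma7 reached the lowest library of Psma8. The coding sequences of the 2 genes were identical at 557 of 744 aligned bases, or 74.9%, and neither has a copy elsewhere in the GENCODE annotation that matches at least 90% of bases over at least 50% of the coding length.

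Psma8 exceeded Psma7 in 12 of 12 libraries, by 3.02-fold ± 0.280 (SD, n = 12), with a range from 2.57 to 3.39. The log2 ratio was 1.59 ± 0.13 (SD), with p = 0.000488 in an exact two-sided sign-flip permutation test over the 12 libraries, the smallest p this test can give, and the same value after Benjamini-Hochberg adjustment over the 4 ratios tested. Psma8 thus made up 75.0% ± 1.75 of the summed FPKM of both genes. The sign-flip test asks only whether the ratio lay on 1 side of 1 in these libraries. An error in the FPKM of a gene that all libraries share does not enter it. The ratio averaged 2.89 ± 0.196 in the 3M mice, 2.99 ± 0.375 in the 6M, 3.03 ± 0.320 in the 12M and 3.15 ± 0.310 in the 18M mice (SD, n = 3). The slope of the log2 ratio was 0.0075 per month with an SE of 0.0066, and the exact two-sided permutation of ages over the 12 libraries gave p = 0.277 and an adjusted p = 0.769 over the 4 ratios.

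**Figure D2:**
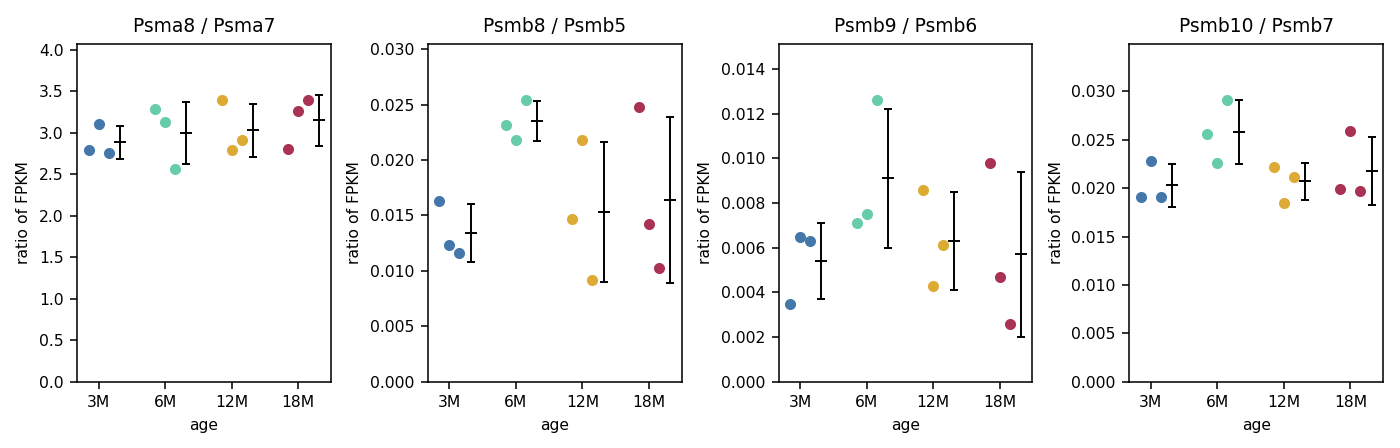
Ratio of the FPKM of 4 pairs of subunits that can hold the same place in the core particle (vertical axes, each from 0), by age, with 1 point per mouse and the mean and SD of each age beside the points. Psma8 lies 2.57 to 3.39 times above Psma7 in every library, whereas the 3 inducible subunits lie at or under 0.029 of their constitutive partners.

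Psma6 had the highest level of the ring, at 323, 293 and 305 FPKM in the 3M mice, 308, 319.9 and 285 in the 6M mice, 285, 276 and 272 in the 12M mice, and 382, 314 and 328 in the 18M mice. It was singled out after its values were seen. All 12 values lay between 272 and 382 FPKM. Reads were spread over 2 RefSeq transcripts that share all exons but the first. NM_001310583 begins at an upstream first exon, at chr12:55384222-55384327 on the plus strand of mm10, and took 84.6% of the gene's FPKM, with a range of 82.3% to 88.3% over libraries. NM_011968 begins at a downstream first exon, at chr12:55398825-55398991, which lies 14603 bases further on, and took the other 15.4%.

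The coverage of the first exons, as read from the assembled exon records, gave the same order. The upstream first exon was covered 922 ± 158 times (SD, n = 12) and the downstream first exon 183 ± 19.8 times, and the upstream exon held 83.3% ± 1.78 of the coverage of both. This share averaged 82.4% ± 0.811 in the 3M, 82.6% ± 2.03 in the 6M, 83.1% ± 1.26 in the 12M and 85.2% ± 1.91 in the 18M mice (SD, n = 3), a description for which no test was run. The second exon, which both transcripts share, was covered 2600 ± 381 times. In GENCODE the transcript from the upstream exon codes for 227 residues and the one from the downstream exon for 246, so that it lacks 19 residues, and the first exons hold 19 and 76 coding bases.

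**Figure D3:**
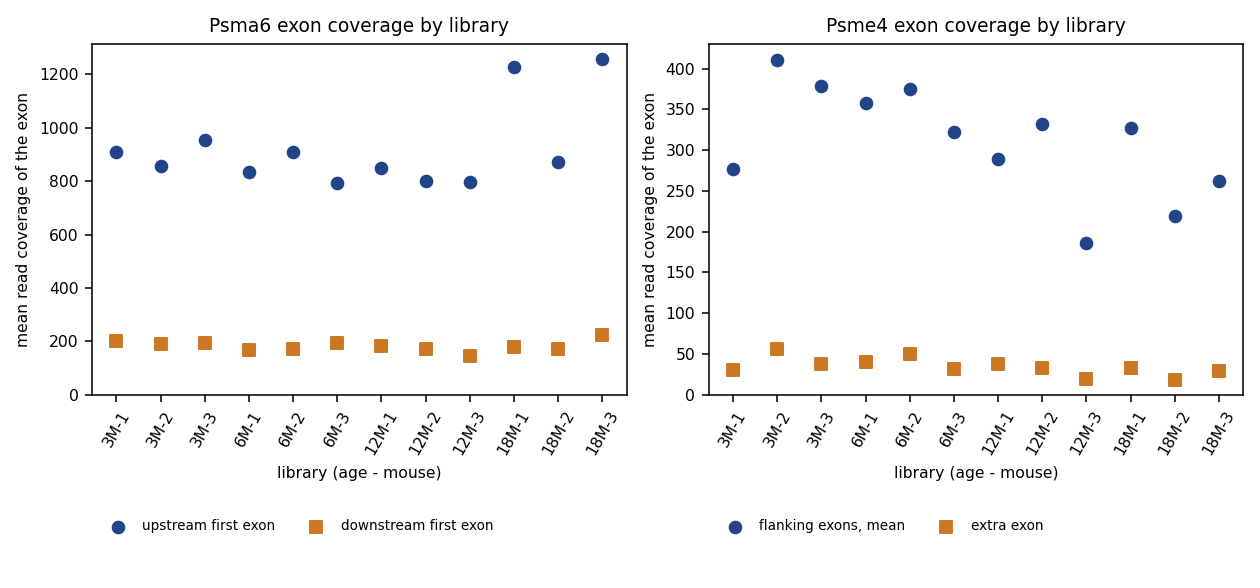
Mean read coverage of exons (vertical axes) in each of the 12 libraries, for the upstream and downstream first exons of Psma6 at left and for an extra exon of Psme4 and the mean of its 2 flanking exons at right. The coverage is not scaled to library size. The upstream first exon of Psma6 lies above the downstream one in every library, and the extra exon of Psme4 stays at 8.08% to 13.6% of its neighbours.

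The windows around the 2 starts of Psma6 are shown because they differ in base composition, and both run from 250 bases before to 50 after the start. The sequences are those of RefSeq on GRCm38.p6, the upstream window at chr12:55383972-55384271 and the downstream window at chr12:55398575-55398874, both on the plus strand. Capitals mark CG dinucleotides.
Psma6 upstream start: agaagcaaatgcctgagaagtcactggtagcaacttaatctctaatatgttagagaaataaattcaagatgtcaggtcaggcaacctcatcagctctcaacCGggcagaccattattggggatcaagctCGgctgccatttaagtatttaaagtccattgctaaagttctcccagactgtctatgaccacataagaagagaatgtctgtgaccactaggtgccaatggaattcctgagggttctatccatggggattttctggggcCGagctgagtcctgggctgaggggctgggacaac
Psma6 downstream start: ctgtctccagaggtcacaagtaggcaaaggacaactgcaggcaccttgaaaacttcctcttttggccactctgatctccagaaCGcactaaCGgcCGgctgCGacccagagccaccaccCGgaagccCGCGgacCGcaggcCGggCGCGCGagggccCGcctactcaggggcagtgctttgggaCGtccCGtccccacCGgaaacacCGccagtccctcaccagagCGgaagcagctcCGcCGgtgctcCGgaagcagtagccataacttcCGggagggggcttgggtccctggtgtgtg
The upstream window held 46.7% G and C with 3 CG dinucleotides, and the downstream window held 65.0% with 22. Over all 32851 windows of this length the median was 52.7% with 7 CG dinucleotides, and over the 43 windows of the 40 proteasome genes with an entry it was 57.3% with 19. CCAAT, searched on both strands, matched the upstream window at bases 115 and 222, and not in the downstream one, and 37.4% of all windows hold it.

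In these windows 6 motifs were searched on both strands. The palindrome of the transcription factor NRF1, here nuclear respiratory factor 1, was in 7 of 43 proteasome windows, or 16.3%, against 4.60% of all windows. It reads GCGCA, any base, then GCGC. This factor is not Nfe2l1, a different factor that is also called NRF1. The palindrome lay at Psma2, Psma3, Psma4, Psmc4, Psmc5, Psmd14 and Psmg1. CCAAT was in 14 of 43 windows, or 32.6%, against 37.4% of all. TGACNNNGC, the antioxidant response element through which proteasome genes are known to be induced, was in 6 of 43, or 14.0%, against 12.4%, at Psmb5, Psmb6, Psmc6, Psmd9, Psmd12 and Psme4. The cyclic AMP response element TGACGTCA was in 0 of 43 windows, against 1.79% of all, and Psma8 had no window to search. The interferon-stimulated response element, searched as a pair of GAAA runs with any 2 bases between, was in 5 of 43, or 11.6%, against 3.44%. It lay at Psmb3, Psmd4, Psmd9, Psme1 and Psmg4, and not at Psmb8, Psmb9 or Psmb10. TTCNNNGAA, the gamma-activated site, was in 3 of 43, or 6.98%, against 8.30%, at Psmb8, Psmd2 and Psmg1. The motifs can overlap each other, and a match of letters does not show binding.

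The 7 constitutive beta subunits ran from 12.2 FPKM for Psmb3 to 88.9 FPKM for Psmb6. The 3 that carry the catalytic sites were Psmb6, the caspase-like subunit, Psmb7, the trypsin-like subunit, and Psmb5, the chymotrypsin-like subunit. Psmb6 gave 89.7, 79.7 and 93.6 FPKM in the 3M mice, 82.5, 84.9 and 88.6 in the 6M mice, 87.3, 85.8 and 99.8 in the 12M mice, and 89.5, 91.7 and 93.8 in the 18M mice. Psmb7 gave 87.4, 81.2 and 92.9 FPKM in the 3M mice, 81.7, 86.0 and 86.9 in the 6M mice, 86.0, 84.0 and 91.1 in the 12M mice, and 88.6, 83.2 and 92.6 in the 18M mice. Psmb6 and Psmb7 overlapped, with Psmb6 higher in 10 of 12 libraries. Psmb5 gave 39.8, 43.4 and 39.3 FPKM in the 3M mice, 39.8, 39.8 and 40.9 in the 6M mice, 38.1, 37.1 and 43.4 in the 12M mice, and 43.7, 40.3 and 42.8 in the 18M mice, which lay below every library of Psmb6 and Psmb7. The structural subunits Psmb4, Psmb1 and Psmb2 had means of 56.3, 48.9 and 24.8 FPKM.

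The inducible subunits lay far below these. Psmb8, the counterpart of Psmb5, gave 0.650, 0.534 and 0.456 FPKM in the 3M mice, 0.922, 0.870 and 1.04 in the 6M mice, 0.560, 0.810 and 0.400 in the 12M mice, and 1.08, 0.574 and 0.439 in the 18M mice, from 33 to 80 reads per library. Psmb9, the counterpart of Psmb6, gave 0.310, 0.519 and 0.591 FPKM in the 3M mice, 0.585, 0.633 and 1.12 in the 6M mice, 0.752, 0.367 and 0.608 in the 12M mice, and 0.877, 0.432 and 0.243 in the 18M mice, from 14 to 55 reads. Psmb10, the counterpart of Psmb7, gave 1.67, 1.85 and 1.77 FPKM in the 3M mice, 2.09, 1.94 and 2.53 in the 6M mice, 1.91, 1.56 and 1.93 in the 12M mice, and 1.76, 2.16 and 1.82 in the 18M mice, from 115 to 193 reads. Each was highest in the third 6M mouse except Psmb8, where the first 18M mouse was highest. With so few reads, the counts of Psmb8 and Psmb9 carry a larger sampling error than those of the other genes that passed the filter on low counts, and they varied between libraries with a coefficient of variation of 34.5% and 42.1% in FPKM.

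Against their constitutive partners the ratios were 0.0171 ± 0.0059 for Psmb8 to Psmb5, 0.0066 ± 0.0028 for Psmb9 to Psmb6 and 0.0221 ± 0.0033 for Psmb10 to Psmb7 (SD, n = 12), which is 39.4 to 108 times, 79.1 to 386 times and 34.3 to 54.0 times lower in single libraries. Each ratio was below 1 in 12 of 12 libraries, with p = 0.000488 in the exact two-sided sign-flip permutation test, again the smallest it can give, and the same adjusted p. The limit of this test given for Psma8 and Psma7 holds here too. The log2 ratios were -5.93 ± 0.51, -7.33 ± 0.63 and -5.50 ± 0.21 (SD). Psmb8, Psmb9 and Psmb10 together made up 1.46% ± 0.288 of the FPKM of the 6 catalytic genes, from 1.08% in the third 18M mouse to 2.12% in the third 6M mouse.

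None of these ratios passed the test of a slope on age. The slopes of the log2 ratio were -0.0080 (SE 0.027), -0.022 (SE 0.032) and -0.0032 (SE 0.011) per month, with p = 0.766, 0.511 and 0.769 in the exact two-sided permutation of ages and an adjusted p = 0.769 for each. Without the third 18M mouse all 3 turned positive, at 0.0082, 0.0063 and 0.00042, and the last also without the third 6M mouse, at 0.0010. Psmb11, the subunit of the thymus, was at 0 to 9 reads in every library and 62 reads in all, and was the only one of the 48 genes that did not pass the filter on low counts. The 1 library with 0 reads allows up to 0.0551 CPM, taking 3 reads as the limit of a count of 0, and this covers counting error only.

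The macrophage and lymphocyte markers, 8 genes all above 0 in some library, summed to between 16.6 and 19.2 FPKM in 3M libraries, 18.2 and 26.1 in 6M, 13.0 and 15.4 in 12M and 13.5 and 22.6 in 18M libraries. The highest sums were those of the third 6M mouse and the first 18M mouse, the 2 libraries where Psmb8 and Psmb9 were highest. Psmb10, which has more reads, was highest in the third 6M mouse, at 2.53 FPKM. In the first 18M mouse it was at 1.76 FPKM, below its mean of 1.92. The part of these cells in the levels was not tested. Of the marker list, 4 of 8 genes had a mean above 1 FPKM.

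The ATPases of the cap form a ring of 6 different subunits. They ran from Psmc6 at 22.7 FPKM through Psmc4 at 24.9, Psmc1 at 33.9, Psmc5 at 68.9 and Psmc2 at 190.2 to Psmc3 at 336 FPKM, a span of 14.8-fold. All neighbours but Psmc4 and Psmc6 were separated in every library. Psmc3, singled out after its values were seen, had 1 transcript, NM_008948, at chr2:91054016-91059438 with 12 exons, and ranged only from 322 to 349 FPKM, a coefficient of variation of 2.96%. Psmc1 gave 33.0, 35.1 and 36.5 FPKM in the 3M mice, 34.9, 34.6 and 36.9 in the 6M mice, 33.1, 32.7 and 31.4 in the 12M mice, and 33.5, 32.8 and 32.8 in the 18M mice, with the lowest value in the third 12M mouse.

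The 11 non-ATPase subunits of the cap ran from Psmd14, the deubiquitinase, at 15.7 FPKM to Psmd8 at 164 FPKM. Psmd8, a lid subunit with 1 transcript on the minus strand of chromosome 7, gave 167, 161 and 158 FPKM in the 3M mice, 153, 155 and 161 in the 6M mice, 168, 166 and 169.5 in the 12M mice, and 172, 164 and 178 in the 18M mice. Psmd14 gave 17.5, 16.2 and 15.9 FPKM in the 3M mice, 16.2, 16.4 and 17.0 in the 6M mice, 14.3, 14.6 and 14.5 in the 12M mice, and 16.3, 14.6 and 14.9 in the 18M mice. Psmd2, a scaffold subunit, and Psmd4, a ubiquitin receptor, had 141 and 93.1 FPKM, against 22.3 FPKM for Psmd1, the other scaffold subunit. Psmd4 had 2 RefSeq transcripts, NM_008951 of 1335 nucleotides with 59.7% of its FPKM and NM_001282017 of 1344 nucleotides with 40.4%. The other 6, Psmd3, Psmd6, Psmd7, Psmd11, Psmd12 and Psmd13, lay between 23.5 and 43.3 FPKM.

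The chaperones that build the particle had lower levels than most of its parts. Those of the cap, Psmd5, Psmd9 and Psmd10, had means of 5.24, 10.6 and 7.47 FPKM. Those of the core, Psmg1 to Psmg4, had 13.8, 21.8, 4.06 and 7.14 FPKM. Psmg4 gave 6.38, 5.96 and 7.99 FPKM in the 3M mice, 6.20, 6.76 and 6.93 in the 6M mice, 7.90, 8.36 and 8.71 in the 12M mice, and 6.12, 7.02 and 7.40 in the 18M mice. Psmg2 gave 20.5, 20.9 and 22.3 FPKM in the 3M mice, 21.0, 20.5 and 16.1 in the 6M mice, 23.3, 19.7 and 23.8 in the 12M mice, and 25.2, 24.2 and 23.4 in the 18M mice, with the lowest value in the third 6M mouse. In CPM the same mouse was among the highest for Psmg2, at 31.2 against 24.0 to 31.4 in the other libraries.

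Of the activators that can bind in place of the cap, Psme4 was the highest. Psme4 gave 105, 110.3 and 113 FPKM in the 3M mice, 117, 116 and 107 in the 6M mice, 101, 107 and 76.9 in the 12M mice, and 107, 94.99 and 92.3 in the 18M mice, with the lowest value in the third 12M mouse. Psme3, the nuclear activator, gave 39.9, 38.1 and 34.8 FPKM in the 3M mice, 39.3, 37.5 and 37.6 in the 6M mice, 37.4, 37.1 and 35.7 in the 12M mice, and 38.4, 37.5 and 38.5 in the 18M mice. Psme1 and Psme2, which form the interferon-responsive activator together, were lower. Psme1 gave 7.09, 7.39 and 7.49 FPKM in the 3M mice, 6.40, 7.27 and 9.59 in the 6M mice, 6.86, 5.38 and 7.34 in the 12M mice, and 7.34, 7.61 and 4.95 in the 18M mice. Psme2 gave 6.76, 6.72 and 6.41 FPKM in the 3M mice, 6.47, 7.05 and 9.22 in the 6M mice, 5.74, 6.24 and 6.55 in the 12M mice, and 7.63, 6.92 and 5.99 in the 18M mice, and both were highest in the third 6M mouse. Psme2 has a copy in the table, Psme2b, with 99.3% identical bases, so that the reads of these genes could not be assigned with certainty. Psme4 was higher than Psme3 by 2.77-fold and Psme3 than Psme1 by 5.33-fold in the means, with no overlap between libraries.

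Of the FPKM of Psme4, 93.6% was placed on an assembled transcript, MSTRG.2619.2, that holds 48 exons against 47 in the RefSeq transcript. Its extra exon 4, at chr11:30801298-30801363 on mm10, is 66 bases long and is not in the GENCODE annotation used. The coverage of this exon was 34.5 ± 10.9 (SD, n = 12), against 311 ± 67.3 for the mean of its 2 flanking exons, or 10.9% ± 1.63 of them, with a range of 8.08% to 13.6%. The transcripts also differ in the start of the first exon, which lies 203 bases further downstream in MSTRG.2619.2. The coverage that the assembler recorded for the first exon was 132 ± 29.9 for MSTRG.2619.2 and 10.5 ± 3.19 for the RefSeq transcript (SD, n = 12), so that MSTRG.2619.2 held 92.7% ± 1.08 of both. The first exons overlap, and these records depend on how the assembler divided the reads. The coverage of the extra exon as a percentage of its flanking exons averaged 11.5% in the 3M, 11.4% in the 6M, 11.1% in the 12M and 9.72% in the 18M mice. The last exon of Psme4 was covered 962 ± 157 times, more than these inner exons. It was covered 2.63 ± 0.538 times as deeply as the exon before the extra exon in the 3M, 2.55 ± 0.456 in the 6M, 3.77 ± 1.78 in the 12M and 4.22 ± 1.24 in the 18M mice (SD, n = 3), and this excess was largest in the third 12M mouse, at 5.77, where Psme4 was lowest. Coverage in this library was shifted to the last exon in other members too. Psma6 was covered 1583 times at its last exon and 2249 times at its second, against means of 1260 and 2600 over the 12 libraries. Psma8 was covered 381 times at its last exon and 228 times at its first, against means of 310 and 247. The part of this shift in the low Psme4 value was not tested.

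Psmf1, which encodes the inhibitor PI31, gave 50.7, 48.5 and 46.6 FPKM in the 3M mice, 47.4, 48.3 and 56.6 in the 6M mice, 63.3, 148 and 52.4 in the 12M mice, and 45.4, 49.3 and 63.8 in the 18M mice. The second 12M mouse stood out, and the other 11 libraries lay between 45.4 and 63.8 FPKM. In that library a transcript of 2283 nucleotides, MSTRG.12115.5, took 138 FPKM, or 93.6% of the gene, against 0.555 to 1.10 FPKM in the others. In CPM Psmf1 was at 398 in that library and 244 to 276 in the others, a ratio to the highest of them that is smaller than in FPKM. The coverage recorded for the last exon of this transcript, at chr2:151718280-151718685, was 1583 in that library and 0 in every other. The exon next to it, at chr2:151719485-151719643, was covered 2290 times there, within a range of 2011 to 3354 over the 12 libraries. The last exons of the other transcripts, of 2624 and 2548 bases, were covered at most 34.1 and 46.3 times in any library. FPKM is scaled to transcript length, so the values of the other 11 libraries rest on these long exons. Exons of this transcript also overlap those of 4930556L07Rik on the same strand, and the part of that gene's reads in this value was not tested.

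The levels in FPKM thus depended, for a few genes, on which transcript the reads were placed on. Psmb3, singled out after its values were seen, varied by 44.8% (coefficient of variation) in FPKM and by 3.87% in CPM. Its short RefSeq transcript of 731 nucleotides held 21.1 FPKM in the first 12M mouse and 20.3 FPKM in the first 18M mouse, against 1.48 to 3.91 FPKM in the other libraries, while the gene kept 26.3 to 29.5 CPM in all. Psmb3 also has 7 pseudogenes with near-identical coding sequence. For Psmc1, 98.6% of the FPKM of the first 3M mouse was on the assembled transcript MSTRG.4661.2, to which 0 or 1 read was assigned in each of the other 11 libraries.

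**Figure D4:**
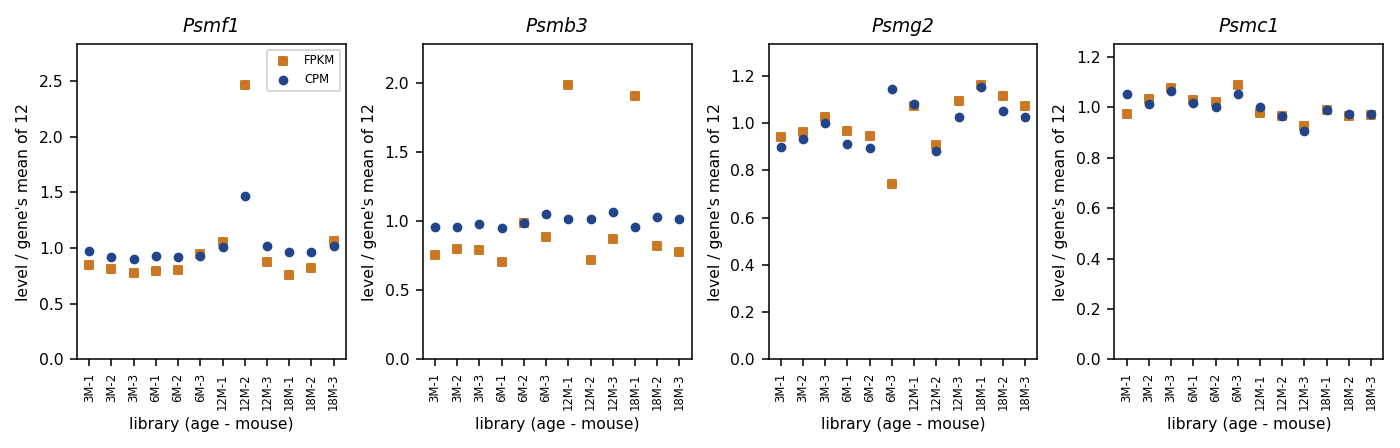
Level of Psmf1, Psmb3, Psmg2 and Psmc1 in each of the 12 libraries divided by the gene's mean over them (vertical axes), as FPKM (squares) and as CPM (circles). FPKM and CPM part most in the second 12M mouse for Psmf1, in the first 12M and first 18M mice for Psmb3 and in the third 6M mouse for Psmg2, where FPKM is low and CPM is high.

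In all, 58 of the 95 transcripts matched a RefSeq intron chain and 37 were assembled isoforms that shared a splice junction with one. The intron chains of only 2 of the 37 are in GENCODE. The assembled isoforms held more than 50% of the FPKM in 4 genes, Psme4 at 93.6%, Psmf1 at 64.4%, Psma3 at 58.4% and Psmb3 at 53.5%. Near-identical copies, almost all pseudogenes (28 of 32), exist for 16 of the 48 genes, and exons of 11 genes overlap an exon of a gene on the opposite strand, which a kit without strand cannot separate. None of the 16 genes with a copy is Psma6, Psma7, Psma8, Psmb8, Psmb9 or Psmb10, while Psmb5, Psmb6 and Psmb7 are among them. Psmb6, Psmb7 and Psmb8 are among the 11 with an overlap on the opposite strand. For Psmb6 it lies only in an assembled transcript, MSTRG.3100.1, which held 0% to 30.9% of the gene's FPKM over libraries.

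To ask whether the proteasome genes changed as the testis aged, each was fitted in reads per gene, over all 12 libraries with age in months and for pairs of ages. With edgeR's quasi-likelihood test and an adjusted p of 0.05 or less, 0 of 47 tested genes passed in the slope on age, against 0.171% of all 25204 genes and loci tested. The counts were also 0 in 18M against 3M (0.065% of all), in 6M against 3M (0.0733%), in 12M against 6M (0.0407%) and in 18M against 12M (0.0203%). DESeq2 passed 0 members in each of the 5 comparisons too, where it called, of the genes it gave an adjusted p, 2.54% in the slope, 1.63% in 18M against 3M, 0.382% in 6M against 3M, 0.461% in 12M against 6M and 0.191% in 18M against 12M. The smallest adjusted p of a member by edgeR was 0.235 in the slope, 0.386 in 18M against 3M, 0.990 in 6M against 3M, 0.650 in 12M against 6M and 0.9996 in 18M against 12M. The replicates are separate mice, and p-values measure the spread between them.

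At an unadjusted p of 0.05 or less, 3 of 47 members passed in the slope, where 15.4% of all genes did, 7.16% higher and 8.2% lower with age. Psmd8 had 0.0074 per month on the log2 scale (SE 0.0027, adjusted p = 0.235), Psmd14 -0.010 (SE 0.0041, adjusted p = 0.268) and Psmc1 -0.0071 (SE 0.0030, adjusted p = 0.287), all by edgeR. Without the third 6M mouse these 3 passed again, and Psmg2 did too, at 0.014 (SE 0.0050, adjusted p = 0.248 by edgeR), where 14.9% of all genes did. In 18M against 3M, 2 members passed at this level, where 12% of all genes did. Psmg2 differed by 0.19 on the log2 scale (95% interval 0.02 to 0.36, adjusted p = 0.386) and Psme4 by -0.15 (95% interval -0.31 to -0.0015, adjusted p = 0.415) in edgeR. Beside the change of Psme4, its last exon was covered 2.63 ± 0.538 times as deeply as the exon before the extra exon in 3M. In 18M this was 4.22 ± 1.24 times (SD, n = 3). The coverage itself, which is not scaled to library size, averaged 911 and 1097 at the last exon and 356 and 267 at the other. The part of this shift of coverage along the transcript in the change was not tested. Psma8, with the third lowest p, differed by 0.12 (95% interval -0.0062 to 0.25, adjusted p = 0.430), and Psma7 by -0.017 (-0.21 to 0.17, adjusted p = 0.947).

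The intervals show how large a change these libraries leave room for. In 18M against 3M the median change of the 47 members was 0.021 on the log2 scale, against 0.0063 for all genes, with 30 members above 0 and 17 below. The 95% intervals lay within 0.5 of 0 on the log2 scale for 44 of 47 members, where this held for 54.6% of all genes tested, and within 0.25 for 33. The interval was widest for Psmb9, from -1.09 to 1.31, and Psmb8, from -0.51 to 1.2, the 2 genes with the fewest reads. In CPM the coefficient of variation over the 12 libraries had a median of 5.22% for the members and 13.0% for all genes tested. The members lay mostly above the median FPKM of all genes.

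**Figure D5:**
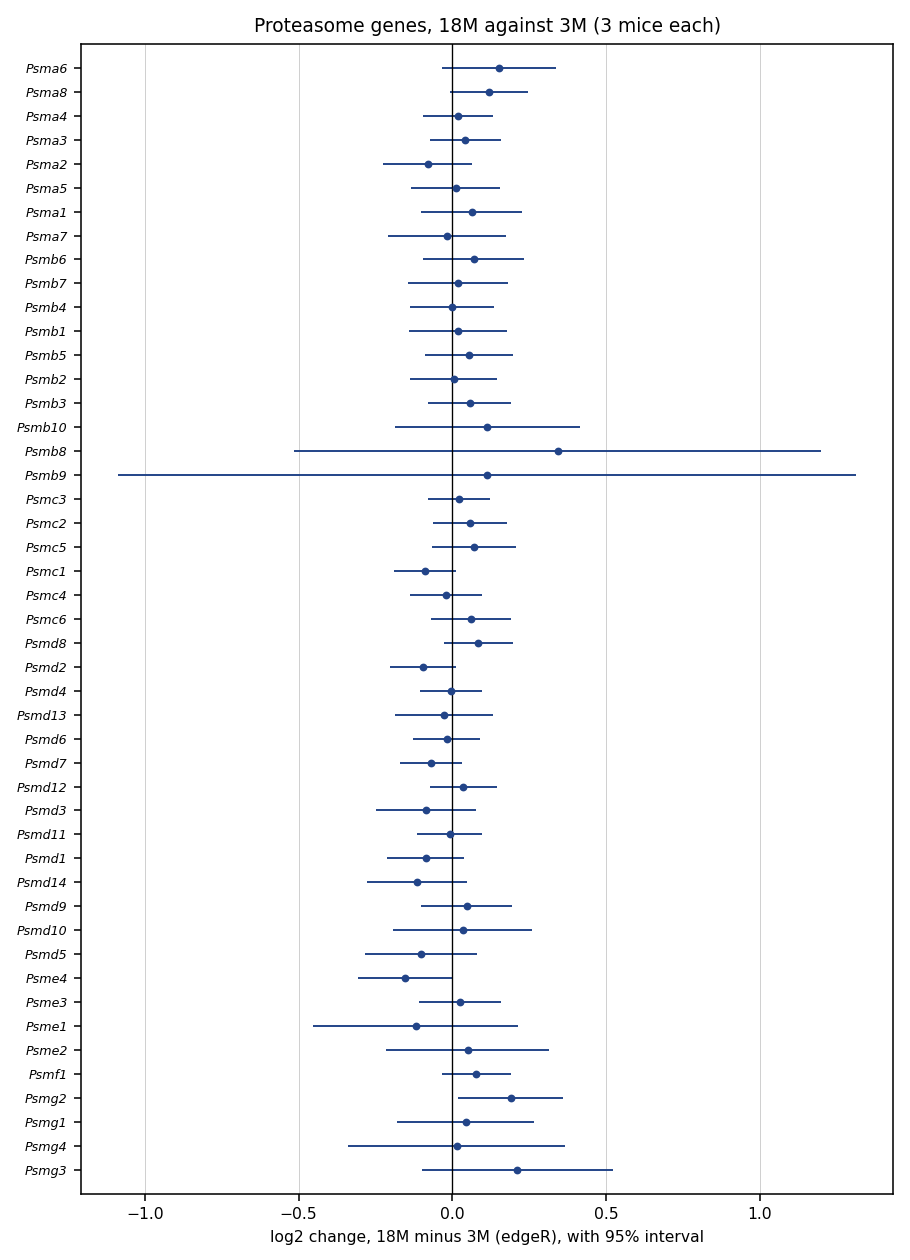
Change of 47 proteasome genes from 3M to 18M on the log2 scale (horizontal axis) with 95% intervals from the edgeR fit, 3 mice at each age, ordered by role and level. Most intervals are narrow and span 0, those of Psmb8 and Psmb9 are the widest, and no gene passed at an adjusted p of 0.05.

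In 18M against 3M the 3 mice of each age did not overlap for 4 members in CPM scaled over these 6 libraries, 1 higher (Psmg2) and 3 lower (Psmc1, Psmd2 and Psmd7), where 9.63% of all genes were higher and 9.97% lower in this way. With CPM scaled over all 12 libraries Psmd2 overlapped, and in FPKM the members without overlap were Psma8 and Psmg2, higher, and Psmd2 and Psmd7, lower. In 6M against 3M, 1 member had an unadjusted p of 0.05 or less, where 3.94% of all genes did. This was Psmb8, which differed by 0.78 on the log2 scale (SE 0.20, adjusted p = 0.990 by edgeR), and by 0.71 (SE 0.23, adjusted p = 0.9999) without the third 6M mouse. Psmb9 differed by 0.70 with that mouse and by 0.35 without it, and Psmb10 by 0.30 and 0.19, none with an adjusted p under 0.990 in edgeR. In 12M against 6M, 5 members passed at the unadjusted level, where 7.49% of all genes did, and without that mouse 4 passed, where 5.87% of all genes did. Of the 5, Psmd14 at -0.19 (SE 0.057) and Psmg4 at 0.34 (SE 0.11) had the lowest p, each with an adjusted p = 0.650 by edgeR, and the others were Psmb8, Psmd8 and Psmd13. Psmb8 and Psmd8 did not pass without the third 6M mouse, Psmb8 at -0.67 (unadjusted p = 0.0477) with it and -0.60 (unadjusted p = 0.121) without it, and Psma6 passed in their place, at -0.18 (SE 0.058, adjusted p = 0.814), all by edgeR. In 18M against 12M, 2 members passed, where 3.56% of all genes did, Psma6 at 0.29 (SE 0.077, adjusted p = 0.9996 by edgeR) and Psmg4 at -0.28 (SE 0.11, adjusted p = 0.9996 by edgeR).

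Other genes of the pathway were taken from 3 lists, with 40 of 41 tested (Paaf1 was not). None of the 40 passed the edgeR slope on age, where 9 had an unadjusted p of 0.05 or less, 1 higher and 8 lower, where 7.16% of all genes were higher and 8.2% lower. DESeq2 passed 2 of them, where it called 2.54% of all genes. Of 24 proteasome parts and partners without a Psm symbol, 23 were tested and 5 had such a p, 1 higher and 4 lower. The lowest p were those of Nfe2l1, the factor that induces proteasome genes when proteolysis is impaired, at -0.019 per month (SE 0.0048, adjusted p = 0.138 by edgeR, 0.0198 by DESeq2), and Ufd1l, a cofactor of the segregase Vcp, at 0.011 (SE 0.0036, adjusted p = 0.204 by edgeR). Of 7 ubiquitin genes and activating enzymes, 1 was lower at that level, Uba6, an activating enzyme, at -0.017 (SE 0.0060, adjusted p = 0.234 by edgeR), and Ubb had the next lowest p. Of 10 antigen processing and interferon genes, 3 were lower at that level, among them Erap1, which trims peptides for presentation, at -0.028 (SE 0.011, adjusted p = 0.266 by edgeR).

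Cell type markers were fitted in the same way. In edgeR's slope, 2 of 6 Leydig markers passed, Cyp17a1 at -0.099 per month (SE 0.0078, adjusted p = 0.000125) and Cyp11a1 at -0.11 (SE 0.013, adjusted p = 0.0053). The summed Leydig markers ranged from 967 to 1118 FPKM in 3M and from 681 to 941 in 18M libraries. Insl3 alone averaged 903 and 723 FPKM at these ages. None of the 6 spermatogonial, 7 spermatocyte, 8 spermatid, 7 Sertoli, 7 tested macrophage and lymphocyte or 6 endothelial and peritubular markers passed. At an unadjusted p of 0.05 or less, where 7.16% of all genes were higher and 8.2% lower, 4 of 8 spermatid markers were higher, and 5 of 6 Leydig, 3 of 6 endothelial and peritubular, 1 of 6 spermatogonial, 1 of 7 spermatocyte, 1 of 7 Sertoli and 1 of 7 macrophage and lymphocyte markers were lower. The 2 lowest p of the spermatid markers were those of Acrv1, at 0.016 per month (adjusted p = 0.152), and Spaca1, at 0.015 (adjusted p = 0.161), and of the endothelial and peritubular markers those of Col1a1, at -0.067 (adjusted p = 0.0767), and Pecam1, at -0.037 (adjusted p = 0.167), by edgeR. In the other lists they were Zbtb16 and Kit at -0.029 and -0.017 for spermatogonia, Mybl1 and Spo11 at -0.012 and 0.0055 for spermatocytes, Amh and Wt1 at -0.30 and -0.0053 for Sertoli cells, and Csf1r and Cd68 at -0.038 and -0.022 for macrophages and lymphocytes, with an adjusted p of at least 0.228 in edgeR. Amh lay near the floor, with a mean of 0.21 FPKM and a range of 0 to 0.938 over the libraries. The part of these shifts in the levels of the proteasome genes was not tested.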

How the data were processed

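Total RNA of 12 whole mouse testes was sequenced in pairs after removal of ribosomal RNA, with a kit that does not keep strand. The authors aligned the reads to mm10 with HISAT2, assembled and merged transcripts and re-estimated them with StringTie 1.3.3b. They deposited 1 table with, for each transcript and library, expected counts (estimated from coverage, in whole numbers) and FPKM values, and 1 file per library with the coverage of each exon as the assembler wrote it.

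Counts and FPKM of sense transcripts (class =, c, j or o) were summed by symbol, and all other transcripts by locus, so that tests ran over the whole table. Groups came from the labels. edgeR 4.0.16 fitted TMM-scaled counts after filterByExpr, for age in months over 12 libraries or for pairs of ages with only their 6 libraries, with Benjamini-Hochberg adjustment over all genes and loci. DESeq2 1.42.0 was an alternative. Log2 ratios used FPKM plus 0.01 and exact permutations. The fits were tested on simulated data. Near copies were found with BLAST+ 2.17.0 in GENCODE vM21. Promoter windows matched 40 of the 48 genes, and Psma8, Psmb1, Psmb2, Psmb7, Psmc3, Psmd3, Psmd7 and Psmg2 had none.

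The members, lists and tests were chosen with earlier results of these data known. All members were accounted for by role; values in every library were given for the alternative subunits, the activators, the inhibitor and the 3 members with the lowest p in the slope and in 18M against 3M, and for each list of pathway or marker genes the 2 genes of lowest p were named, except 1 gene that is not reported here. Same-numbered mice of different ages did not deviate together (mean r = 0.0018), so numbers were not treated as pairs.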

Additional observations from a re-analysis of the deposited data

Results flagged for a closer look

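There were 4 assembled transcripts that carry the symbol of a proteasome gene but were left out of its level because they are not sense exonic matches, and each held reads in every library. MSTRG.15166.1, within the span of Psmc2 and classed as intronic, was at 2.19 ± 0.271 FPKM (SD, n = 12). MSTRG.9568.1, a single exon of 6887 bases that begins 1822 bases after the end of Psma8, was at 1.88 ± 0.127 FPKM. MSTRG.13145.1, a single exon of 464 bases after the end of Psmd4, was at 1.25 ± 0.282 FPKM. MSTRG.4320.1, with 2 exons antisense to the end of Psma6, was at 0.945 ± 0.267 FPKM. The kit keeps no strand, so the reads do not give the strand of those with a single exon. There are no control samples for these transcripts, and no comparison between ages was made with them.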

How the results depend on the processing

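No member was called with age by any of the alternatives that kept adjustment: library size scaling, DESeq2 size factors, no filter, DESeq2, matching transcripts alone, all 12 libraries in 1 fit, log2 of age, or leaving out each library in turn. Without adjustment, 3 members had a p of 0.05 or less in the slope, 2 in 18M against 3M, 1 in 6M against 3M, 5 in 12M against 6M and 2 in 18M against 12M. For the 40 pathway genes in the slope on age, DESeq2 called 2 and the unadjusted p 9. Over all genes, edgeR called 43 in the slope, 16 in 18M against 3M, 18 in 6M against 3M, 10 in 12M against 6M and 5 in 18M against 12M, and DESeq2 called 559, 298, 110, 125 and 55. The replicate block, for mouse numbers that share only a number, called 0 members and 0 pathway genes and, of all genes, 22 in the slope against 43 without it, with 3 of 12 libraries best correlated with their own number. With the replicate block the ratio of Psma8 to Psma7 had a slope of 0.0075 per month (adjusted p = 0.792 in the permutation within blocks). The level of each of the 4 ratios kept its direction and its call throughout. Leaving out single libraries moved the slope of the log2 ratio between -0.027 and 0.0082 per month for Psmb8 to Psmb5, between -0.046 and 0.0063 for Psmb9 to Psmb6 and between -0.011 and 0.0010 for Psmb10 to Psmb7, with the sign turned without the third 18M mouse, or for Psmb10 also without the third 6M mouse. The slope of Psmc1 was 0.0061 with matching transcripts alone, where most of its reads in the first 3M mouse are left out by construction. Leaving out the third 6M mouse, and comparing the overlap of 3M and 18M mice on other scales, were chosen after seeing the data. Low read numbers limit Psmb8, Psmb9 and Psmb11.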
